A study of Trichoderma reesei with 6 samples.

Results

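The genes described here are 10 *Trichoderma reesei* genes for the enzymatic breakdown of xylan, found by symbol or locus tag among the 9113 genes of the deposited table. They are 5 endoxylanase genes (*xyn1* to *xyn5*), the β-xylosidase genes *bxl1* and *xyl3b*, the acetyl xylan esterase gene *axe1*, the acetyl esterase gene *aes1*, and the α-glucuronidase gene *glr1*. All 10 were present and passed the filter of a value above 0 in at least 1 library. *T. reesei* is a filamentous fungus used for industrial cellulase production. The strain of interest lacks *gul1*, whose product belongs to a family of fungal RNA-binding proteins. In Δ*gul1*, the major part of *gul1* was replaced by a cassette carrying *Aspergillus niger pyrG*, in the uridine-auxotrophic parent QP4, which lacks *pyr4* and derives from QM9414. In QPP, the same parent carries *pyrG* at random sites and *gul1* is intact, so that both strains lack *pyr4* and carry *pyrG*. Each strain is 1 transformant. Both were precultured for 36 hr in minimal medium with 2% glucose and then grown for 48 hr in medium with 1% cellulose at 30 °C and 200 rpm, in 3 cultures each, and poly(A) RNA of the mycelia was sequenced.

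Xylan, the main hemicellulose of hardwood and grass cell walls, is a chain of β-linked xylose that carries acetyl, glucuronic acid and arabinose groups. Endoxylanases cut the chain, β-xylosidases release xylose from the short pieces, and esterases, α-glucuronidases and arabinofuranosidases take off the side groups that block the other enzymes. In *T. reesei* the enzymes are secreted during growth on plant material or cellulose, and their transcription depends on the activator Xyr1, which also controls the cellulase genes and the use of xylose.

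The libraries held 17654286 to 21659230 fragments, and 8821 to 8871 genes were above 0 in each. Values are FPKM, in which fragments are divided by the length of the gene and by the library total, so that levels of different genes can be set side by side. The deleted gene *gul1* was at 0.979, 0.581 and 0.746 FPKM in Δ*gul1*, against 86.9, 82.4 and 79.9 FPKM in QPP, as the labels say. Fold changes are Δ*gul1* over QPP on the log2(FPKM + 1) scale after scaling between libraries, tested by limma. A gene was called when its log2 fold change was above 1 in size and its unadjusted p under 0.05. Adjustment of p-values followed Benjamini and Hochberg and covered the 9006 genes tested. The scaling matters for small differences, because the median over all genes was a log2 fold change of 0.01 with it and 0.14 in the FPKM as deposited. Of all calls, 47.2% were higher in Δ*gul1* with the scaling and 61.2% without it. Fewer transcripts per hypha and fewer hyphae of an expressing kind cannot be told apart in these bulk samples.

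Transcripts of the xylan enzymes were less abundant in Δ*gul1*. Of the 10 genes, 6 were called lower and 0 were called higher, where 2.09% of all genes tested were called lower and 1.87% higher, 3.95% in all. All 10 were lower at an adjusted p under 0.05, a mark that 15.0% of all genes reached in that direction and 14.5% in the other. In all 10 the scaled FPKM of the 3 Δ*gul1* libraries lay below those of the 3 QPP libraries, as they did in 22.7% of all genes (45.0% did not overlap in either direction). The median log2 fold change of the 10 genes was −1.16, or −1.002 in the FPKM as deposited. Among them, 7 (all but *xyn4*, *bxl1* and *axe1*) also stand in a supplementary list of genes selected on these same libraries, so these counts are not independent evidence of a direction.

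**Figure D1:**
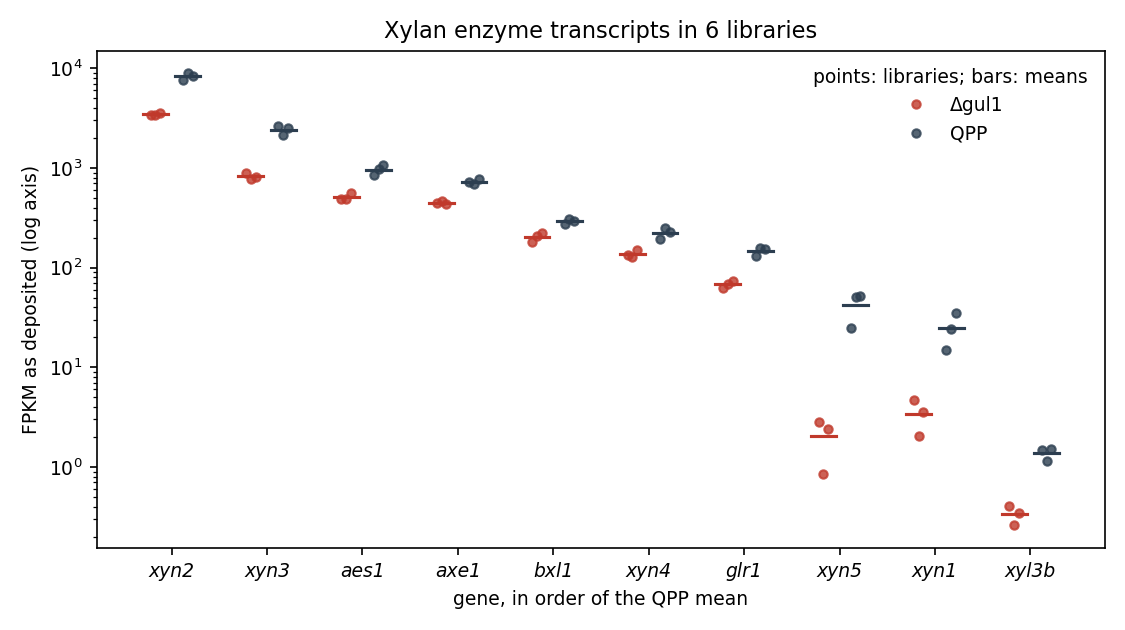
FPKM as deposited (log axis) of the 10 xylan enzyme genes in each of the 3 Δ*gul1* libraries (left of each pair) and the 3 QPP libraries (right), ordered by the QPP mean, with bars at the means. The Δ*gul1* points lie below the QPP points for every one of the 10 genes, and the QPP means range widely, with 8296 FPKM for *xyn2* and 1.38 FPKM for *xyl3b*.

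Among the endoxylanases, which open the attack on the xylan chain, *xyn2* was the most abundant transcript. It encodes a GH11 enzyme and is listed as TRIREDRAFT_123818, at positions 125447 to 126445 of its scaffold in the QM6a annotation. *xyn2* was at 3415, 3369.8 and 3547 FPKM in Δ*gul1*, against 7662, 8902 and 8323 FPKM in QPP. Every Δ*gul1* library stood below every QPP library, and the 3 Δ*gul1* values lay close together. The log2 fold change of *xyn2* was −1.42 (SE 0.127, 95% interval −1.72 to −1.13, adjusted *p* = 0.000182 by limma), a level in Δ*gul1* at 37.2% of that in QPP.

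The GH10 endoxylanase gene *xyn3* (TRIREDRAFT_120229, 1587624 to 1589287) had the next highest level of the 10 genes in both strains. *xyn3* was at 885, 783 and 803 FPKM in Δ*gul1*, against 2630.4, 2141 and 2509.6 FPKM in QPP. The strains did not overlap, and QPP replicate 2 was the lowest of the QPP libraries, whereas for *xyn2* it was the highest. *xyn3* fell by 1.71 on the log2 scale (SE 0.110, adjusted *p* = 4.43e-05 by limma), to 30.4% of the QPP level.

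The GH11 genes *xyn1* and *xyn5* had far lower levels and the steepest fold changes of the 10. The *xyn1* gene (TRIREDRAFT_74223, 2489251 to 2490031) encodes the other classical GH11 xylanase of *T. reesei* beside XYN2. *xyn1* was at 4.71, 2.05 and 3.53 FPKM in Δ*gul1*, against 14.9, 24.3 and 35.4 FPKM in QPP. These values rest on 70, 26 and 49 fragments in Δ*gul1*, against 215, 379 and 481 in QPP. Even the lowest QPP library was above the highest Δ*gul1* library, although the libraries within each strain were widely spread. The log2 fold change of *xyn1* was −2.65 (SE 0.319, 95% interval −3.39 to −1.91, adjusted *p* = 0.000779 by limma), and its mean was 8.08-fold lower in Δ*gul1* without the pseudocount.

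*xyn5* (TRIREDRAFT_112392, 92327 to 93054) had the steepest fall of the 10. It was at 2.85, 0.854 and 2.42 FPKM in Δ*gul1*, against 24.6, 50.8 and 51.8 FPKM in QPP. These are few fragments in Δ*gul1*, namely 39, 10 and 31 in replicates 1 to 3, against 327, 729 and 648 in QPP. The log2 fold change of *xyn5* was −3.96 (SE 0.341, 95% interval −4.75 to −3.16, adjusted *p* = 0.000161 by limma), and its mean was 23.1-fold lower in Δ*gul1* without the pseudocount. With limma-voom on recovered fragments, which adds no pseudocount of 1 FPKM, the log2 fold change was −4.57 for *xyn5* (95% interval −6.02 to −3.11) and −2.97 for *xyn1* (95% interval −4.002 to −1.93).

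In contrast, *xyn4* (TRIREDRAFT_111849, 346861 to 348532), which encodes a GH30 xylanase, had the smallest fold change of the 5 endoxylanase genes. It was at 134, 127 and 150.2 FPKM in Δ*gul1*, against 195, 247 and 229 FPKM in QPP. The groups did not overlap, but the log2 fold change of *xyn4*, −0.86 (SE 0.0902, 95% interval −1.07 to −0.65, adjusted *p* = 0.000409 by limma), did not reach the fold threshold. Thus 4 of the 5 endoxylanase genes were called lower, including 3 of 3 in GH11, where 2.09% of all genes tested were. The median log2 fold change over the 5 was −1.71. These 4 genes are in the supplementary list selected on these same libraries, so the counts are not independent evidence.

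Summed over the 5 endoxylanase genes, the FPKM were 4442, 4282 and 4506 in Δ*gul1*, against 10527, 11365 and 11149 in QPP. *xyn2* made up 76.9, 78.7 and 78.7% of this sum in Δ*gul1*, against 72.8, 78.3 and 74.7% in QPP. The share of *xyn3* was 19.9, 18.3 and 17.8% in Δ*gul1*, against 25.0, 18.8 and 22.5% in QPP. *xyn2* supplied most of this sum in both strains, and its shares overlapped between the strains. The sum and all shares of it leave out TRIREDRAFT_69276, also annotated as an endoxylanase gene. Its mean was 187 FPKM in Δ*gul1* and 452 FPKM in QPP.

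The smaller shares did not overlap. *xyn4* took 3.03, 2.96 and 3.33% of the endoxylanase FPKM in Δ*gul1*, against 1.85, 2.18 and 2.05% in QPP. *xyn5* took 0.0641, 0.0200 and 0.0537% in Δ*gul1*, against 0.234, 0.447 and 0.464% in QPP. The share was therefore higher in Δ*gul1* for the endoxylanase gene with the smallest fold change and lower for *xyn5*. The share of *xyn1* was 0.106, 0.0478 and 0.0783% in Δ*gul1*, against 0.142, 0.214 and 0.318% in QPP. With 3 libraries a strain, an exact two-sided permutation test of such a share cannot give a p below 0.1.

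**Figure D2:**
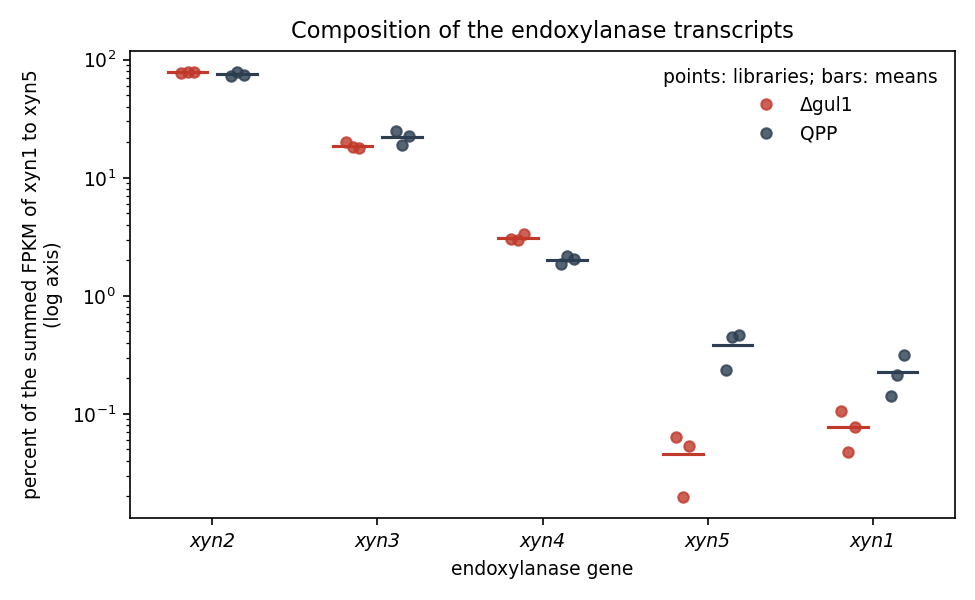
Share of each endoxylanase gene in the summed FPKM of *xyn1* to *xyn5* (percent, log axis) for each Δ*gul1* library (left of each pair) and each QPP library (right), with bars at the means. The points overlap for *xyn2*, and Δ*gul1* lies higher for *xyn4* and lower for *xyn5* and *xyn1*.

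The order of *xyn1* and *xyn5* also differed between the strains. The ratio of *xyn1* to *xyn5* FPKM was 1.66, 2.40 and 1.46 in Δ*gul1*, against 0.606, 0.479 and 0.684 in QPP. *xyn5* was thus below *xyn1* in each Δ*gul1* library and above it in each QPP library. Within a strain, however, the FPKM of both genes overlapped across libraries, and they are the only neighbours in the order of levels that did. The rest of the order was shared by the strains and ran, highest first, *xyn2*, *xyn3*, *aes1*, *axe1*, *bxl1*, *xyn4*, *glr1*, then *xyn1* and *xyn5*, then *xyl3b*.

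*xyn1* and *xyn5* were also the least reproducible of the 10 genes. The coefficient of variation (SD over mean) of *xyn1* was 38.9% in Δ*gul1* and 41.2% in QPP, and that of *xyn5* was 51.4% in Δ*gul1* and 36.3% in QPP. Of the 3266 genes within 2-fold of the level of *xyn1* in QPP, 99.8% had a lower coefficient of variation, and their median was 6.40%. This count and those that follow include the gene itself. Genes were matched on FPKM and not on fragments, so they can differ in the fragments behind a value. For *xyn5* in QPP it was 99.5% of 3618 genes, with a median of 5.79%. In Δ*gul1*, where genes of like level vary more, 96.2% of 868 genes varied less than *xyn1* and 95.2% of 688 genes varied less than *xyn5*. The other 8 genes had coefficients of variation of 5.77 to 15.4% in QPP.

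The β-xylosidase gene *bxl1* (TRIREDRAFT_121127, 100991 to 103522) encodes the GH3 enzyme that turns xylooligosaccharides into xylose. It was at 182, 208 and 223 FPKM in Δ*gul1*, against 273, 309 and 296 FPKM in QPP. The strains did not overlap, yet the difference was the smallest of the 10, with a log2 fold change of −0.68 (SE 0.0769, 95% interval −0.86 to −0.50, adjusted *p* = 0.000604 by limma), and *bxl1* was not called. In Δ*gul1* its level was 62.6% of that in QPP. Since *xyn2* was lower by more, the ratio of *bxl1* to *xyn2* FPKM was 0.0533, 0.0617 and 0.0629 in Δ*gul1*, against 0.0356, 0.0347 and 0.0355 in QPP.

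The other GH3 gene annotated as a β-xylosidase, *xyl3b* (TRIREDRAFT_58450, 160734 to 163124), was scarcely expressed. It was at 0.405, 0.261 and 0.346 FPKM in Δ*gul1*, against 1.48, 1.14 and 1.53 FPKM in QPP. These levels rest on 20, 11 and 16 fragments in Δ*gul1*, against 71, 59 and 69 in QPP. The log2 fold change of *xyl3b* was −0.90 (SE 0.103, adjusted *p* = 0.000619 by limma) and not called, but the pseudocount of 1 FPKM is larger than each of its Δ*gul1* values. It was called lower with a pseudocount of 0.1 FPKM, at −1.90, and with limma-voom on recovered fragments, at −2.15 (95% interval −2.82 to −1.48). The mean of *xyl3b* was 4.58-fold lower in Δ*gul1* without a pseudocount.

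Among the genes for side-group enzymes, *axe1* (TRIREDRAFT_73632, 520228 to 521336) encodes a CE5 acetyl xylan esterase, which removes acetyl groups from polymeric xylan. It was at 444, 464 and 438 FPKM in Δ*gul1*, against 721, 693 and 776 FPKM in QPP. The 3 libraries of each strain lay close together and the strains were apart, at a log2 fold change of −0.86 (SE 0.0684, 95% interval −1.02 to −0.70, adjusted *p* = 0.000115 by limma), so that *axe1* was not called.

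The CE16 acetyl esterase gene *aes1* (TRIREDRAFT_121418, 834449 to 835675), whose enzyme deacetylates short xylooligosaccharides, lay on the threshold. It was at 489, 484 and 560.4 FPKM in Δ*gul1*, against 843, 984 and 1060.4 FPKM in QPP. Its log2 fold change was −1.07 (SE 0.0946, 95% interval −1.29 to −0.85, adjusted *p* = 0.000182 by limma). The call was lost without QPP replicate 3, at −0.9951, in the FPKM as deposited, at −0.91, and with quantile normalization, at −0.98. The ratio of *aes1* to *axe1* FPKM overlapped between the strains.

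*glr1* (TRIREDRAFT_72526, 244151 to 246792) encodes a GH67 α-glucuronidase, which takes glucuronic acid off xylooligosaccharides. It was at 62.3, 68.8 and 74.2 FPKM in Δ*gul1*, against 130.02, 159 and 154 FPKM in QPP. The strains did not overlap. *glr1* fell by 1.25 on the log2 scale (SE 0.0847, 95% interval −1.45 to −1.06, adjusted *p* = 5.6e-05 by limma), and its level in Δ*gul1* was 41.5% of that in QPP.

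Together the 10 genes amounted to 5643 ± 149 FPKM in Δ*gul1* and 13147 ± 566 FPKM in QPP (SD, n = 3 each). As a share of all FPKM, this was 0.604, 0.631 and 0.644% in Δ*gul1*, against 1.47, 1.56 and 1.52% in QPP.

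Further xylan enzyme genes with a symbol or annotation are 6. Of these 5 were called lower, where 2.09% of all genes tested were, 1 was not called, and the median log2 fold change was −1.38. Those 5 are also in the supplementary list selected on these libraries, and their count is therefore not independent evidence. TRIREDRAFT_69276 and TRIREDRAFT_54219 entered only through the annotation in that list, which covers only genes it selected. Xylan enzyme genes with neither a symbol nor such an annotation could not enter. The arabinofuranosidase genes *abf1* and *abf2*, whose enzymes release arabinose side groups, had the steepest fold changes of the 6. *abf1* was at 49.1, 46.7 and 41.6 FPKM in Δ*gul1*, against 283, 166 and 374 FPKM in QPP (log2 fold change −2.64, SE 0.264). *abf2* was at 116, 99.7 and 107 FPKM in Δ*gul1*, against 439.8, 379 and 549 FPKM in QPP (log2 fold change −2.22, SE 0.134). Both were well apart between the strains, with wide spread among the QPP libraries.

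Another GH30 xylanase gene, TRIREDRAFT_69276, was called where *xyn4* was not. TRIREDRAFT_69276 was at 189.9, 184 and 186 FPKM in Δ*gul1*, against 448, 417 and 491 FPKM in QPP, at a log2 fold change of −1.43 (SE 0.0728, 95% interval −1.60 to −1.26). The same held for another CE5 acetyl xylan esterase gene beside *axe1*, TRIREDRAFT_54219, with 27.5, 27.5 and 21.3 FPKM in Δ*gul1*, against 59.1, 53.2 and 64.9 FPKM in QPP (log2 fold change −1.34, SE 0.125). The ratio of *xyn4* to TRIREDRAFT_69276 was 0.735 ± 0.0637 in Δ*gul1* and 0.498 ± 0.0835 in QPP (SD, n = 3 each), with no overlap between the strains. *cip2*, for the glucuronoyl esterase that cuts links between xylan and lignin, was called at −1.19 (SE 0.0947).

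The exception was *axe2*, named as an acetyl xylan esterase gene. It was at 223, 204 and 223 FPKM in Δ*gul1*, against 177, 161 and 186 FPKM in QPP. The libraries overlapped after scaling, with a log2 fold change of 0.15 (SE 0.0745, 95% interval −0.02 to 0.33, adjusted *p* = 0.166 by limma). Without the scaling it was 0.31 (adjusted *p* = 0.0106 by limma).

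**Figure D3:**
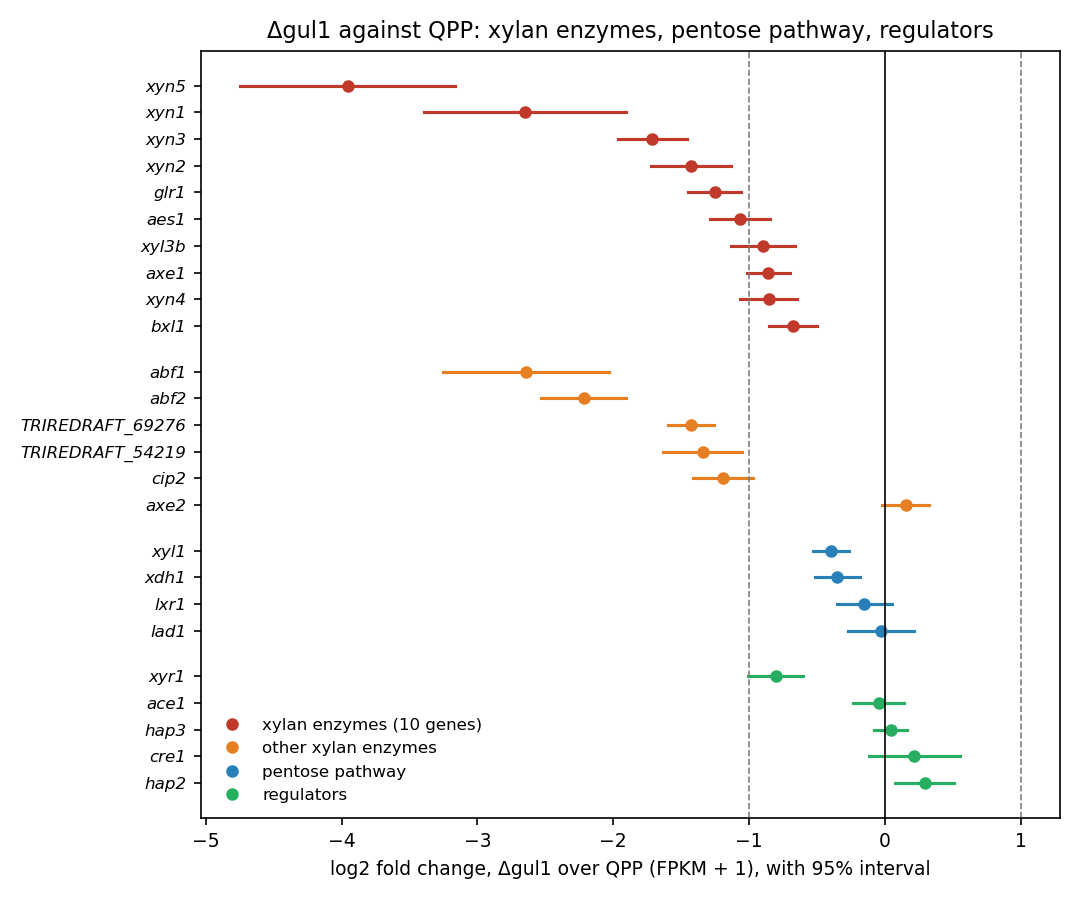
Log2 fold change of Δ*gul1* over QPP on the FPKM + 1 scale with its 95% interval from limma, for the 10 xylan enzyme genes, 6 further xylan enzyme genes, 4 pentose pathway genes and 5 regulator genes, with dashed lines at the call threshold of 1 in either direction. All 10 xylan enzyme intervals lie below 0, from *xyn5* at −3.96 to *bxl1* at −0.68, and no interval of the pentose pathway or of a regulator other than *xyr1* reaches −1.

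Downstream of the enzymes, xylose and arabinose are taken up and converted by reductases and dehydrogenases. For this pathway 4 genes were identified by symbol, a list that does not cover all of it. Of these 0 were called, where 3.95% of all genes tested were. With so few genes the count says little, and its difference from the 6 of the 10 enzyme genes called was not tested. At an adjusted p under 0.05 by limma, 2 of the 4 were lower, where 15.0% of all genes tested were. The xylose reductase gene *xyl1* was at 395, 371 and 411 FPKM in Δ*gul1*, against 449, 469 and 473 FPKM in QPP (adjusted *p* = 0.00187 by limma for a log2 fold change of −0.40, SE 0.0576). The xylitol dehydrogenase gene *xdh1* had a log2 fold change of −0.35 (adjusted *p* = 0.00853 by limma), which was −0.19 (adjusted *p* = 0.0781) in the FPKM as deposited. The L-arabinitol dehydrogenase gene *lad1* and *lxr1*, which is placed here only by its name for L-xylulose reductase, differed less. Their log2 fold changes were −0.03 and −0.15 (adjusted *p* = 0.88 and 0.231 by limma). Both took the other sign in the FPKM as deposited, at 0.13 and 0.00.

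Regulator genes known for xylanase or cellulase promoters and identified by symbol are 6, a list that does not cover all known regulators. Of these, *hap5* was listed at 0 in every library and 5 were tested. Among the 5 tested 0 were called, where 3.95% of all genes tested were, so the count says little about regulators. The activator gene *xyr1* was at 277, 277 and 272 FPKM in Δ*gul1*, against 487, 409 and 402 FPKM in QPP. QPP replicate 1 stood above the other QPP libraries, and the strains did not overlap. The log2 fold change of *xyr1* was −0.80 (SE 0.0871, 95% interval −1.01 to −0.60, adjusted *p* = 0.000473 by limma). In scaled FPKM, QPP replicate 1 was the lowest QPP library for 7 of the 10 xylan enzyme genes. QPP replicate 2 was the lowest QPP library for the other 3 and for all the further xylan enzyme genes. In Δ*gul1*, where *xyr1* hardly varied, replicate 2 was likewise the lowest library for 7 of the 10 genes. How often a given library was the lowest over all genes is not given here. These ranks were noticed after the values were seen, and a relation to the level of *xyr1* was not tested.

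The other regulators differed by less. *hap2*, for a subunit of the CCAAT-binding complex, had a log2 fold change of 0.29 (adjusted *p* = 0.0481 by limma, and 0.0615 with upper quartile scaling). For the carbon catabolite repressor gene *cre1* and the CCAAT-binding subunit gene *hap3* the log2 fold changes were 0.22 and 0.04 (adjusted *p* = 0.309 and 0.593 by limma), and for *hap3* it was 0.20 (adjusted *p* = 0.0278) in the FPKM as deposited. The repressor gene *ace1* was at −0.05 (adjusted *p* = 0.712 by limma) and turned to 0.11 in the FPKM as deposited.

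The xylan enzyme genes do not stand beside each other in the annotation, and the genes on each side of them were read for comparison. Of the 20 immediate neighbours 19 were tested and 4 were called lower (21.1%, where 2.09% of all genes were), with a median log2 fold change of −0.30 over the 19. Each of the 4 lies beside a different one of the 10 genes, and 3 of these 4 carry a symbol or annotation.

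The β-glucosidase gene *cel3a*, whose enzyme splits cellobiose into glucose, starts 955 bp beyond *bxl1*. It was at 91.6, 81.01 and 72.9 FPKM in Δ*gul1*, against 417, 332 and 388 FPKM in QPP, a log2 fold change of −2.35 (SE 0.118). The ratio of *bxl1* to *cel3a* FPKM was 1.98, 2.57 and 3.06 in Δ*gul1*, against 0.654, 0.9299 and 0.761 in QPP. Between these adjacent genes, *bxl1* was thus the more abundant transcript in each Δ*gul1* library and the less abundant in each QPP library.

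*cip1*, a cellulose-induced gene 1702 bp from *axe1*, was at 2137 ± 185 FPKM in Δ*gul1* and 4208 ± 207 FPKM in QPP (SD, n = 3 each), with a log2 fold change of −1.14 (SE 0.110) that was −0.98 in the FPKM as deposited. TRIREDRAFT_123992, annotated as an expansin, lies 2105 bp from *xyn4* and was at 911 ± 52.8 FPKM in Δ*gul1* and 2067 ± 102 FPKM in QPP (SD, n = 3 each; log2 fold change −1.34, SE 0.0787). TRIREDRAFT_73250 overlaps *aes1* by 34 bp and was at 2.85 ± 0.312 FPKM in Δ*gul1* and 8.67 ± 1.31 FPKM in QPP (SD, n = 3 each; log2 fold change −1.45, SE 0.128). No source used here says whether strand was used in counting, so fragments of TRIREDRAFT_73250 and the far more abundant *aes1* may not be separated in the overlap. The next position outward was read on each side of every xylan enzyme gene. A gene there near *xyn1* was listed at 0 in all libraries and was not tested. At that position 3 more genes were called lower, where 2.09% of all genes tested were. The others tested at that position were not called. The 3 called are TRIREDRAFT_103049, an endo-polygalacturonase gene 5230 bp from *xyn1* (log2 fold change −3.14), TRIREDRAFT_59876 near *aes1* (−1.73) and TRIREDRAFT_123914 near *glr1* (−2.01).

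**Figure D4:**
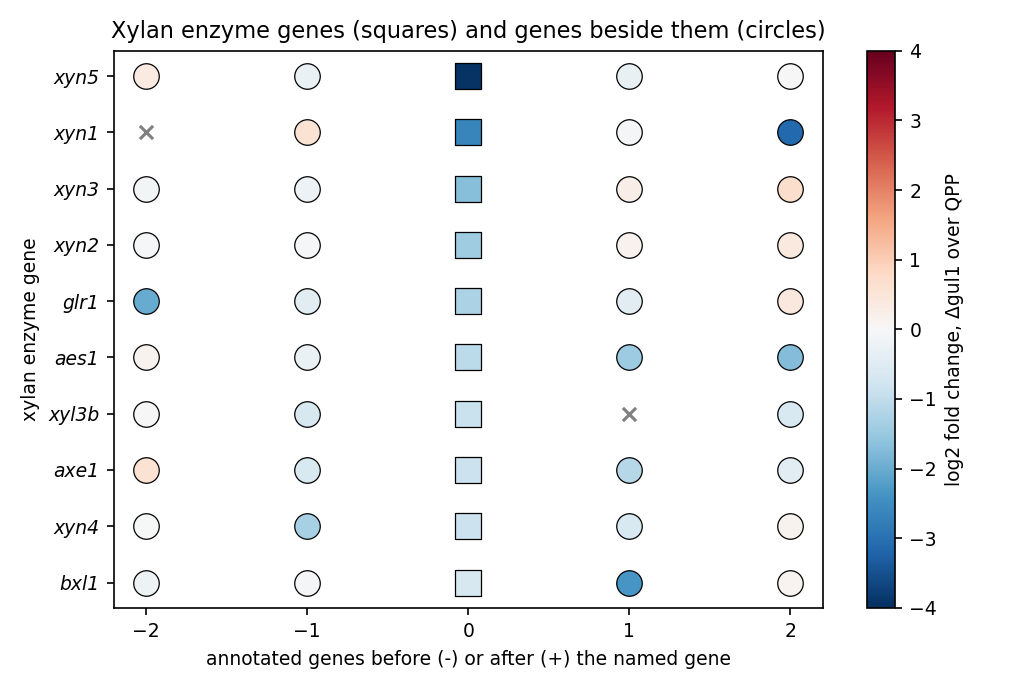
Log2 fold change of Δ*gul1* over QPP (colour, blue lower in Δ*gul1*) for the 10 xylan enzyme genes (squares) and for the annotated genes up to 2 positions before and after each (circles), with a cross for a gene listed at 0 in all libraries. Dark circles include *cel3a* beside *bxl1* at −2.35, TRIREDRAFT_103049 near *xyn1* at −3.14, and both genes after *aes1*, at −1.45 and −1.73, while both neighbours of *xyn2*, *xyn3* and *xyn5* are pale.

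Among 6677 genes averaging 10 FPKM or more, those most like a xylan enzyme gene in level pattern were ranked. The measure was the root mean square distance between log2 levels over the 6 libraries, each gene set to its own mean. It includes the difference between the strains, so genes with like fold changes come out close. For *xyn3* they were TRIREDRAFT_72567 (*cbh2*), at a distance of 0.0561, TRIREDRAFT_110894, a GH30 endo-β-galactanase gene, at 0.0908, and *cel7a* (*cbh1*), at 0.108. *cbh1* and *cbh2* encode the main cellobiohydrolases. For *glr1* the closest was *xyn2*, at 0.110. The nearest genes of *xyn2*, *xyn4*, *xyn5*, *bxl1*, *axe1* and *aes1* carry no symbol or annotation in the sources used here. Some of these were closer than *cbh2* to *xyn3*, such as the nearest to *xyn2*, at 0.0383. *xyn5* had no close partner, its nearest gene being at 0.546, and neither had *xyn1*, at 0.266, against 0.0371 to 0.110 for the nearest genes of the remaining genes ranked. Both genes rest on few fragments in Δ*gul1*, varied widely within each strain and had the steepest fold changes. What these add to their distances was not tested. These distances are a description over 6 libraries of 2 strains.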

How the data were processed

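RNA-seq libraries of 3 Δ*gul1* and 3 QPP cultures were analysed. The authors trimmed the paired reads, aligned them with HISAT2 to the genome of QM6a and obtained gene counts with HTSeq. They deposited FPKM, with no scaling between libraries beyond the total. Per the labels, each library is a biological replicate of its strain.

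Size factors by the median of ratios were applied to the FPKM. For the 9006 genes above 0 in at least 1 library, log2(value + 1) entered a linear model of strain in limma 3.58.1 (R 4.3.3), with moderated variances and a mean-variance trend. P-values measure the spread between 3 cultures of 1 transformant per strain. Since FPKM times length gives steps of 1 fragment, fragments behind each value were recovered for all 9006 genes (tolerance 0.003 fragments), for 514 of them with more than 1 possible length, of which the longest was taken. They served for depth and for limma-voom, an alternative added after the data were seen. Mean and SD are of FPKM as deposited, and percentages of the QPP level and folds of means are of scaled FPKM. Tables were handled in Python 3.11.15 with pandas 2.3.3. The fit was tested on simulated data.

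The 10 genes and all lists were chosen with earlier results of these data known. Named are the 10 genes, *gul1*, called genes of the other lists, the regulators found (except 1 that is not reported here), and at most 10 neighbours or most alike genes that are called or carry a symbol or annotation. The pentose pathway genes that are not called and *axe2* were named outside this rule, after their values were seen. Coordinates are those of the QM6a annotation, version 2.0, without scaffold names. *xyn3* and *glr1*, like *aes1*, overlap a neighbour in it, by 15 and 10 bp.

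Alternatives were other scalings, smaller pseudocounts (0.1 and 0.01 FPKM), a filter at a mean of 1 FPKM, no trend in the variances, other call rules, a replicate block, and leaving out each library.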

Additional observations from a re-analysis of the deposited data

How the results depend on the processing

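All 10 xylan enzyme genes stayed below 0 under every alternative run, of which there were 17 (16 for *xyl3b*, which was below a mean of 1 FPKM). *xyn1*, *xyn2*, *xyn3*, *xyn5* and *glr1* were called under all of them. *aes1* lost its call under 3, and *xyl3b* gained one under 4. With each library left out in turn, 5 to 6 of the 10 were called lower, against 182 to 198 lower and 163 to 181 higher genes in the whole table, and 5 of the 6 further xylan genes each time. By adjusted p alone, calls were 1354 lower and 1309 higher over the whole table, in place of 188 and 168, and 10 of the 10 xylan enzyme genes, 2 pentose pathway genes and 1 regulator gene were lower and 1 regulator gene higher. With pseudocounts of 0.01 and 0.1 FPKM and with limma-voom, 314, 289 and 316 genes were called higher and 280, 260 and 275 lower, with 7 of the 10 lower each time. The cause was not tested.

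Shares of endoxylanase FPKM without each library in turn were 77.8 to 78.7% in Δ*gul1* and 73.7 to 76.5% in QPP for *xyn2*, 18.1 to 19.1% in Δ*gul1* and 20.7 to 23.7% in QPP for *xyn3*, 2.99 to 3.18% in Δ*gul1* and 1.95 to 2.11% in QPP for *xyn4*, 0.0368 to 0.0589% in Δ*gul1* and 0.340 to 0.456% in QPP for *xyn5*, and 0.0630 to 0.0922% in Δ*gul1* and 0.178 to 0.266% in QPP for *xyn1*. The 10 genes together were at 0.617 to 0.637% of all FPKM in Δ*gul1* and 1.497 to 1.54% in QPP. By recovered fragments, which are not divided by length, the shares were 69.98% in Δ*gul1* and 66.8% in QPP for *xyn2*, 25.5% in Δ*gul1* and 29.9% in QPP for *xyn3*, 4.45% in Δ*gul1* and 2.88% in QPP for *xyn4*, 0.0306% in Δ*gul1* and 0.253% in QPP for *xyn5*, and for the 10 genes 0.458% of all fragments in Δ*gul1* and 1.16% in QPP.

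A pairing of the samples by replicate number was not shown. The deviations of same-numbered libraries correlated at −0.132, 0.227 and 0.448 across genes. Only Δ*gul1* replicate 3 correlated best with its own number. A fit with the replicate number as a block called 6 of the 10 genes lower, and over all genes 188 lower and 169 higher. The depth limits *xyl3b*, and *xyn1* and *xyn5* in Δ*gul1*.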

Other observations

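Within QPP, the xylan enzyme genes did not vary as one group. In scaled FPKM, QPP replicate 1 was the lowest QPP library for 7 of the 10 genes, and QPP replicate 2 was the lowest for the other 3, *xyn3*, *axe1* and *xyl3b*. QPP replicate 2 was also the lowest for all 6 further xylan enzyme genes and for *cel3a*, *cel7a* and TRIREDRAFT_72567 (*cbh2*). The highest QPP library was 2.33 times the lowest for *xyn1*, 2.07 times for *xyn5* and 2.29 times for *abf1*, but 1.12 times for *xyn2* and 1.09 times for *bxl1*. In Δ*gul1*, the highest library was 2.32 times the lowest for *xyn1*, 3.36 times for *xyn5* and 1.20 times for *abf1*. These patterns were noticed after the values were seen, and whether they differ from counting and culture variation was not tested.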
